A study of Mus musculus with 4 samples.

Results

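The vesicular glutamate transporters of the mouse are encoded by 3 genes, Slc17a6 (VGLUT2), Slc17a7 (VGLUT1) and Slc17a8 (VGLUT3), which are 3 of the 32285 genes counted in this single-nucleus RNA-seq study of the dorsal hindbrain. They were chosen by name, and their levels were read in all annotated cell types and all neuronal clusters of the nuclei that the authors kept. Counts of unique molecular identifiers (UMIs, each standing for 1 captured RNA molecule) came from 4 libraries with 39461 kept nuclei. Of these libraries, 2 came from controls and 2 came from AgRP-Gq;POMC-Gi mice. The AgRP-Gq;POMC-Gi mice carried AgRP-IRES-Cre+/-, hM3DGqfl/-, POMC-Dre+/- and hM4DGifl/-, so that Cre, expressed under the AgRP gene, switched on the activating receptor hM3DGq and Dre, expressed under POMC, switched on the inhibitory receptor hM4DGi. The labels call the controls WT, while the methods describe them as offspring of the same cross without either recombinase that also carried the hM3DGq and hM4DGi alleles. Every mouse was 12 to 20 weeks old, of either sex and on a C57BL/6 background, and received the receptor ligand CNO at 3 mg per kg 1 h before the tissue was taken without access to food. Tissue of 2 mice per group was pooled and the labels do not tie a mouse to a library, so p-values measure only the spread between 2 libraries per group, which may be technical.

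A vesicular glutamate transporter loads glutamate from the cytosol into synaptic vesicles, and a neuron that lacks all 3 is not expected to release glutamate from vesicles. Slc17a6 is known as the main form of brainstem, thalamic and hypothalamic neurons, and Slc17a7 as that of the cerebral cortex, hippocampus and cerebellar granule and precerebellar neurons. Slc17a8 is known from scattered neurons that often carry a second transmitter, such as serotonin, acetylcholine or GABA. In the caudal hindbrain the area postrema and the nucleus of the solitary tract relay signals from the gut and the blood, and much of that relay is glutamatergic.

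On GRCm38 with GENCODE M21, Slc17a6 (ENSMUSG00000030500) lies on the forward strand at chr7:51622006-51671119, Slc17a7 (ENSMUSG00000070570) on the forward strand at chr7:45163949-45176142 and Slc17a8 (ENSMUSG00000019935) on the reverse strand at chr10:89574020-89621253. The main transcript of each gene has 12 exons, and the coding parts hold 582, 560 and 601 codons before the stop. In pairwise alignment of the coding parts, Slc17a6 and Slc17a7 were identical at 71.9% of aligned bases, Slc17a6 and Slc17a8 at 71.1%, and Slc17a7 and Slc17a8 at 70.0%. The stretches below are shown because they are the longest that the Slc17a6 transcript shares, base for base, with each of the other genes, and so bear on whether a read can be given to one gene. Capitals mark the shared bases, and each sequence runs 5′ to 3′ within the coding part of the GENCODE transcript. The first pair covers coding bases 244 to 312 of Slc17a6 and 220 to 288 of Slc17a7:
Slc17a6: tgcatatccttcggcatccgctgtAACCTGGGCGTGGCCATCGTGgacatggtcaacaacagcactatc
Slc17a7: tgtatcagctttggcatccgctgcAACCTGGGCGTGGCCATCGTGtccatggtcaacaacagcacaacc
The second pair covers coding bases 200 to 272 of Slc17a6 and 254 to 326 of Slc17a8:
Slc17a6: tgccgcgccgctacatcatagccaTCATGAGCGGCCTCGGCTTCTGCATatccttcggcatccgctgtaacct
Slc17a8: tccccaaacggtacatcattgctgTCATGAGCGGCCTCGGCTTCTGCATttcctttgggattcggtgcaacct
The shared runs were 21 bases with Slc17a7 and 25 bases with Slc17a8, and the longest run common to Slc17a7 and Slc17a8 was 17 bases, all shorter than the cDNA read of this assay. No member overlaps another. Slc17a6 overlaps the unconfirmed gene model Gm45072 on the same strand over 929 bases, and Slc17a7 contains the microRNA gene Mir7055.

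The libraries held 48904976 to 53089402 UMIs in kept nuclei, and the 12539 neurons among them had library medians of 8252 to 9623.5 UMIs per nucleus. Among control libraries, neurons were 25.4% and 27.2% of nuclei, and among AgRP-Gq;POMC-Gi libraries 38.0% and 36.5%, so the groups did not overlap in this share. Of 168 barcodes found in more than 1 library, covering 336 nuclei (0.851%), 48 had the same cell type in each, and leaving these nuclei out kept the number of clusters counted for each gene below. All 3 neuronal markers checked (Rbfox3, Snap25 and Syt1) were highest in the annotated neurons. Of 16 markers checked over all types, 14 were highest in the expected type, while Gfap of astrocytes was highest in Tanycyte-like and Cspg4 of oligodendrocyte precursors in Mural nuclei.

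All 3 transporters had their highest mean level in neurons. Levels are given as CPM, the UMIs of a gene scaled by all UMIs of the nuclei in question to a common total, and as mean ± SD of 4 libraries. Slc17a6 stood at 71.2 and 77.2 CPM in control neurons, and the AgRP-Gq;POMC-Gi neurons had 77.1 and 78.4 CPM, a mean of 76.0 ± 3.23 CPM (n = 4). Its 4 neuronal values lay within a narrow band, and 35.7% of neurons (exact 95% interval 34.9% to 36.5%) had at least 1 UMI. Intervals cover counting error only.

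In oligodendrocytes, which make myelin and release no vesicular glutamate, Slc17a6 was at 13.9 ± 2.25 CPM (n = 4) with a UMI in 3.49% of 16816 nuclei, and in astrocytes at 13.8 ± 4.79 CPM with a UMI in 4.55% of 4378 nuclei. The oligodendrocyte level served as the background for neurons below. Median depth was 8704 UMIs in neurons and 2460 UMIs in oligodendrocytes. After each nucleus was thinned to 800 UMIs, 5.62% of neurons and 1.11% of oligodendrocytes had a UMI of Slc17a6.

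The other types ran from 10.8 ± 4.65 CPM in oligodendrocyte precursors to 38.8 ± 44.9 CPM in the 88 nuclei of the F13a1.Immune type. That highest non-neuronal value rested on 8 UMIs, with none in 2 of 4 libraries. Mural cells (30.2 ± 15.04 CPM) and endothelial cells (28.2 ± 14.8 CPM), vessel types of 1520.5 and 1460 UMIs median depth, also exceeded the oligodendrocyte mean, by about 1 of their own SDs. Mural cells and Tmem119.Immune nuclei, the latter at 26.1 ± 6.68 CPM from 51 UMIs, were both above oligodendrocytes in 4 of 4 libraries. In the order of levels, no neighbouring types differed by more than the larger of their SDs; for neurons this comes from the wide spread of the F13a1.Immune type.

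Slc17a7 was at 5.73 and 9.59 CPM in control neurons, against 6.24 and 5.81 CPM in the AgRP-Gq;POMC-Gi group, with the second control library above the other 3. The mean was 6.84 ± 1.84 CPM (n = 4), and 2.99% of neurons had a UMI. It was at 1.00 ± 0.176 CPM in oligodendrocytes and 2.57 ± 2.36 CPM in Tmem119.Immune nuclei, the next type in order, and the step from neurons to that type was larger than either SD. At 800 UMIs per nucleus, 0.447% of neurons and 0.0773% of oligodendrocytes had a UMI of Slc17a7.

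Slc17a8 was at 2.31 and 2.62 CPM in control neurons, against 3.71 and 2.61 CPM in the AgRP-Gq;POMC-Gi group, so the groups overlapped. The mean was 2.81 ± 0.615 CPM (n = 4), with a UMI in 1.89% of neurons. Oligodendrocytes were at 0.364 ± 0.195 CPM, and fibroblasts, next after neurons, at 1.70 ± 2.31 CPM from 4 UMIs. At 800 UMIs the shares were 0.231% of neurons and 0.0297% of oligodendrocytes.

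**Figure D1:**
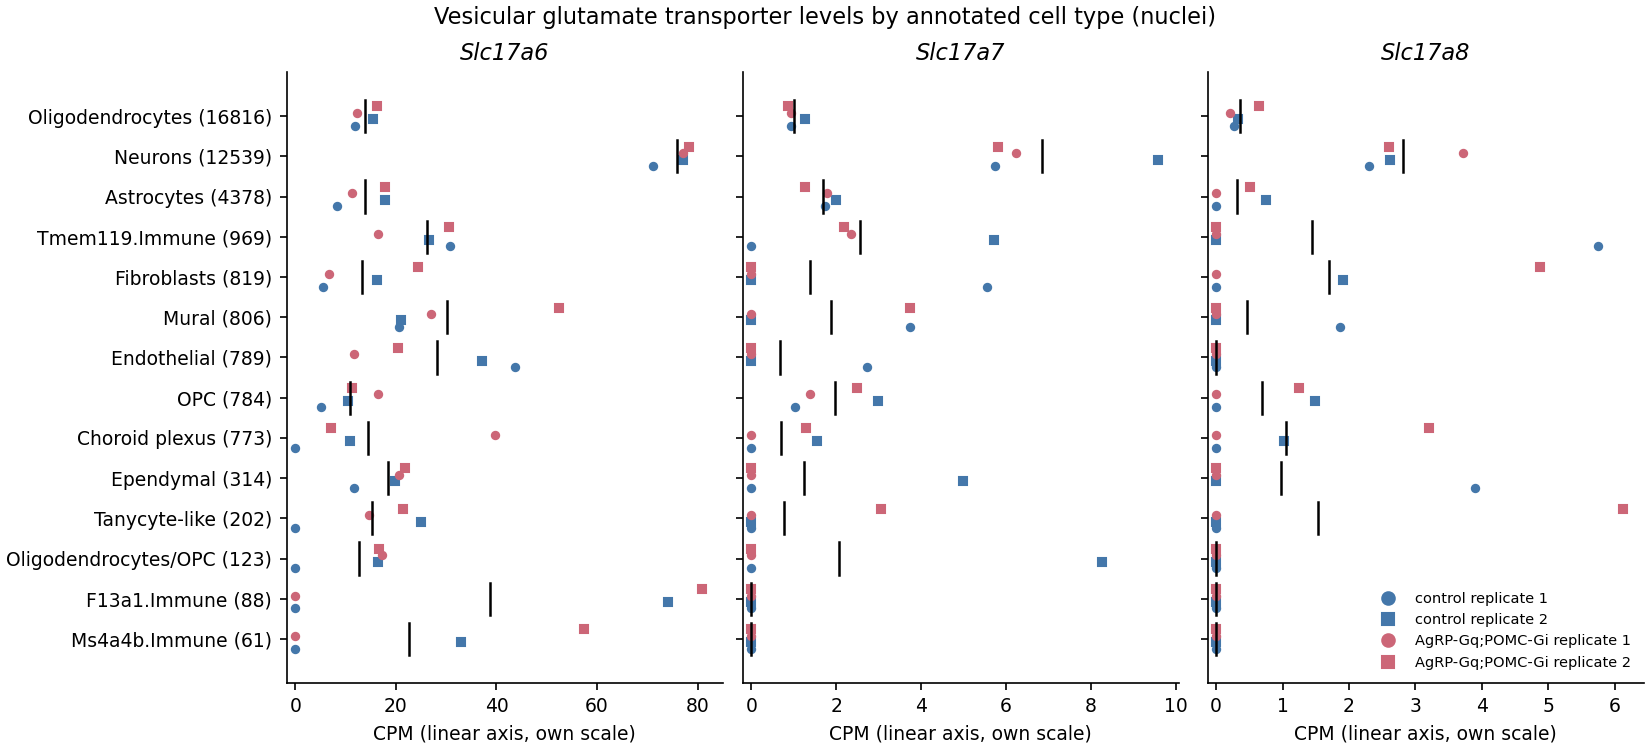
CPM of each transporter gene (x axis, linear, one scale per panel) in the 14 annotated cell types (y axis, number of nuclei in brackets), with 1 point per library and a black line at the mean of 4 libraries. Neurons have the highest mean in each panel, and the rare types scatter widely because their values rest on few UMIs.

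Levels of different genes were compared only per kilobase. Per kilobase of annotated exon, neurons held 14.1 CPM of Slc17a6, 1.27 CPM of Slc17a7 and 0.596 CPM of Slc17a8. Across libraries the ranges were 13.2 to 14.5, 1.06 to 1.78 and 0.489 to 0.786 CPM per exonic kilobase, with no overlap between the genes. Per kilobase of the whole gene, which counts introns as nuclear RNA does, the order was the same at 1.55, 0.561 and 0.0595 CPM. Counting at the 3′ end does not scale strictly with either length.

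Among the 134 neuronal clusters, a cluster was counted as bearing a gene when it held at least 20 of its UMIs, had a UMI in at least 10% of nuclei and reached 2-fold the oligodendrocyte level. By this rule 72 clusters bore Slc17a6, 6 bore Slc17a7 and 3 bore Slc17a8. Slc17a6 alone was borne by 65 clusters with 5859 neurons, Slc17a7 alone by 2 clusters with 121 neurons, Slc17a6 with Slc17a7 by 4 clusters with 297 neurons and Slc17a6 with Slc17a8 by 3 clusters with 432 neurons. No cluster bore Slc17a8 alone, Slc17a7 with Slc17a8, or all 3, and 60 clusters with 5830 neurons (46.5%) bore none. Here alone means that no other member met the rule, and both clusters counted for Slc17a7 alone (104 and 182) missed it for Slc17a6 only by the UMI minimum, with 14 and 6 UMIs. Clusters were made by the authors from the expression of the same nuclei, so these patterns are a description without a test.

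**Figure D2:**
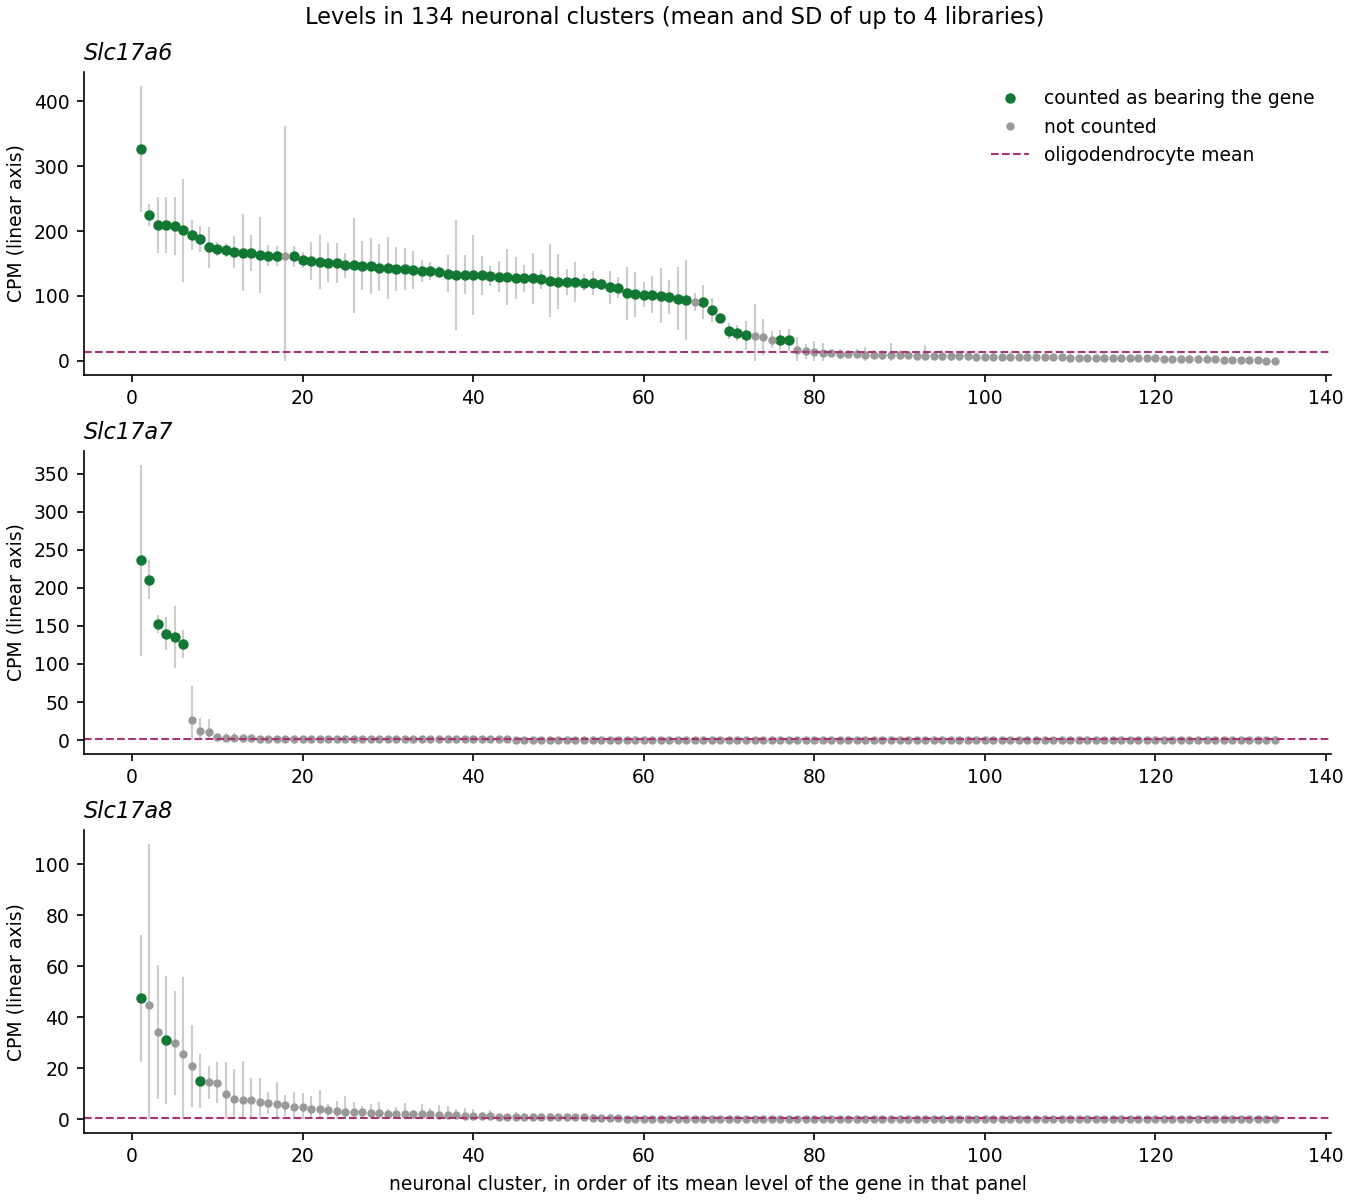
Mean CPM (y axis, linear) of each gene in the 134 neuronal clusters, ordered from high to low within each panel, with grey lines for 1 SD of the libraries, green points for clusters counted as bearing the gene and a dashed line at the oligodendrocyte mean. Slc17a6 forms a long shoulder of 72 clusters, Slc17a7 is high in 6 clusters with a gap below them, and Slc17a8 declines without a gap.

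The 72 clusters with Slc17a6 contained 6588 neurons, 52.5% of all, and 95.8% of its neuronal UMIs. Their median level was 134 CPM, with a range from 32.4 to 326 CPM, and a median of 64.6% of their nuclei had a UMI. In the 62 other clusters the median was 6.24 CPM. Over all neurons of the clusters that bore no member, Slc17a6 was at 8.93 and 7.19 CPM in controls, against 5.41 and 6.42 CPM in AgRP-Gq;POMC-Gi mice. Each of these was below the oligodendrocyte value of the same library, which ran from 11.8 to 16.3 CPM.

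Cluster 185, labelled Hmcn2/Abcb5 by the authors after its leading genes, had the highest Slc17a6 level at 267 and 249 CPM in control libraries and 464 and 324 CPM in AgRP-Gq;POMC-Gi samples. It held 15 nuclei and 56 UMIs, so its mean of 326 ± 97.3 CPM is less certain than those below it. Cluster 97 (Gfral/Sctr), in which Gfral encodes the receptor of the nausea-related hormone GDF15, followed at 236, 241, 217 and 205 CPM, the first 2 values being those of the controls. Its mean of 225 ± 17.0 CPM (n = 4) came from 101 nuclei, of which 68.3% had a UMI. The clusters next in order were 123 (Reln/Pou4f1) at 209 ± 43.6 CPM, 115 (Sema3a/Cdh9) at 209 ± 42.9 CPM, 151 (Lhx2/Reln) at 208 ± 44.1 CPM and 154 (Olfr78/Calcr) at 201 ± 79.9 CPM. These 4 did not differ beyond their spread. Cluster 45 (Prdm16/Zfp804b, 194 ± 22.5 CPM), cluster 80 (Pdyn/Cpa6, 188 ± 19.7 CPM; Pdyn encodes the precursor of dynorphin peptides), cluster 50 (Lhx9/Vwc2l, 175 ± 31.7 CPM) and cluster 53 (Gal/Dkk2, 172 ± 10.7 CPM; Gal encodes the peptide galanin) completed the 10 highest.

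At the lower end, cluster 57 (Adarb2/Ebf2, 32.4 ± 17.4 CPM) and cluster 39 (Col19a1/Sv2b, 32.5 ± 15.6 CPM) were just inside the 2-fold limit of 27.9 CPM. Just outside stood cluster 177 (Foxp2/Ano2), at 161 ± 200 CPM from 3 UMIs, and cluster 179 (Vmn1r207-ps/Pde11a), at 91.2 ± 13.5 CPM from 9 UMIs. Each of these means covers only 2 libraries, since the others held no nuclei of the cluster, and both clusters missed the minimum of 20 UMIs.

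The 6 clusters with Slc17a7 contained 418 neurons (3.33% of all) and held 90.5% of its neuronal UMIs. Cluster 182 (Samd3/Cnpy1) had 394 and 269 CPM in control libraries and 101 and 181 CPM in AgRP-Gq;POMC-Gi samples, from 27 nuclei. Cluster 104 (Gabra6/Fat2) had 178 and 221 CPM in controls and 207 and 239 CPM in AgRP-Gq;POMC-Gi samples, a mean of 211 ± 25.6 CPM (n = 4). In the 4 clusters that the authors named for Slc17a7 itself, the mean was 153 ± 11.8 CPM in cluster 113 (Slc17a7/Il1rapl2), 140 ± 21.4 CPM in cluster 107, 136 ± 40.5 CPM in cluster 121 (Slc17a7/Lama1) and 126 ± 18.7 CPM in cluster 161 (Slc17a7/Col27a1). Neighbours in that order differed by less than the larger SD, apart from the step from cluster 104 to cluster 113. Outside the 6, the highest was cluster 183 at 26.5 ± 44.6 CPM from 3 UMIs, and 79 of 128 clusters had no UMI of Slc17a7.

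The Slc17a7 clusters differed in markers of cerebellar granule cells. Cluster 104 carried all 3 of those read: Gabra6, a GABA-A receptor subunit, at 700 ± 155 CPM, Fat2, a protocadherin, at 128 ± 55.9 CPM and Cbln3, a secreted synapse protein, at 106 ± 48.6 CPM. Its median depth was 3548.5 UMIs. Cluster 182, of 3614 UMIs median depth, had Fat2 at 182 ± 138 CPM, Cbln3 at 6.33 ± 12.7 CPM and no UMI of Gabra6. In clusters 107, 113, 121 and 161, of 11688 to 18433 UMIs median depth, Gabra6 was at 0 in each, Cbln3 at no more than 1.83 CPM and Fat2 at no more than 8.44 CPM.

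Slc17a6 met the rule beside Slc17a7 in those last 4 clusters. It was detected in 47.0% to 56.6% of their nuclei, against 10.6% in cluster 104 and 22.2% in cluster 182, whose depth was lower. At 2000 UMIs per nucleus it was detected in 8.33% to 18.2% of nuclei of the 4 clusters, 7.41% of cluster 104 and 8.00% of cluster 182, so at equal depth the shares were closer and in part alike. The 4 clusters also had less Slc17a6 than most others that bore it, from 42.9 ± 12.9 CPM in cluster 161 to 78.4 ± 18.7 CPM in cluster 121. Its level in clusters 104 (37.0 ± 28.4 CPM) and 182 (38.8 ± 48.8 CPM) differed from that in cluster 161 by less than their spread. Per exonic kilobase, Slc17a7 was at 23.4 to 28.4 CPM and Slc17a6 at 7.94 to 14.5 CPM in these 4 clusters. Per kilobase of the whole gene the values were 10.3 to 12.5 CPM and 0.873 to 1.60 CPM, so Slc17a7 exceeded Slc17a6 in each cluster on either scale.

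Slc17a8 was spread more thinly. The 3 clusters that bore it held 32.1% of its neuronal UMIs, a further 50.3% lay in clusters bearing Slc17a6 only, and 17.3% in clusters bearing no member. Cluster 97 (Gfral/Sctr) had 59.1 and 21.9 CPM in control libraries and 76.3 and 31.8 CPM in AgRP-Gq;POMC-Gi samples, a mean of 47.3 ± 24.9 CPM (n = 4) with a UMI in 23.8% of nuclei (exact 95% interval 15.9% to 33.3%). Cluster 38 (Kcnh8/Maf) had 10.9 and 35.6 CPM in controls and 64.5 and 12.9 CPM in AgRP-Gq;POMC-Gi samples. Cluster 57 (Adarb2/Ebf2) had 3.14, 24.2, 23.6 and 9.22 CPM in the same order. In each of these clusters the libraries of one group differed by more than 2-fold, and the clusters did not differ from their neighbours in order beyond this spread. Without AgRP-Gq;POMC-Gi replicate 1, only 1 of the 3 met the rule.

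The transmitter genes of these clusters differed. Cluster 97 had Ddc, which makes dopamine and serotonin from their precursors, at 417 ± 53.6 CPM, Th, which makes the dopamine precursor, at 42.2 ± 21.2 CPM and Dbh, which makes noradrenaline, at 31.0 ± 16.3 CPM. All 3 ranked 3rd or 4th among the 134 clusters. Cluster 38 had Th at 29.7 ± 4.78 CPM, but Ddc at only 0.293 ± 0.585 CPM and no UMI of Dbh. Cluster 57 had the inhibitory genes Slc32a1, the vesicular GABA and glycine transporter, at 42.9 ± 5.42 CPM, Gad2, a GABA-making enzyme, at 187 ± 62.1 CPM and Slc6a5, the glycine transporter, at 120 ± 14.1 CPM.

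Cluster 167 (Tph2/Slc6a4), singled out as the highest in Slc17a8 among clusters that fell short of the rule, missed the UMI minimum. It had 31.9 and 0 CPM in control libraries and 10.3 and 137 CPM in AgRP-Gq;POMC-Gi samples, from 12 UMIs in 6 of 43 nuclei. This cluster ranked 1st for 5 genes of serotonin neurons, among them Tph2, the serotonin-making enzyme, at 1341 ± 568 CPM and Slc6a4, the serotonin transporter, at 663 ± 314 CPM. Slc17a6 was at 2.99 ± 5.98 CPM there, which is below the oligodendrocyte level. Further clusters above 20 CPM, all under 20 UMIs of Slc17a8, were 118 (Lhx9/Col25a1) at 34.2 ± 26.4 CPM, 147 (Col5a2/Col6a1) at 29.8 ± 20.3 CPM, 154 (Olfr78/Calcr) at 25.5 ± 30.2 CPM and 76 at 20.7 ± 16.1 CPM.

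**Figure D3:**
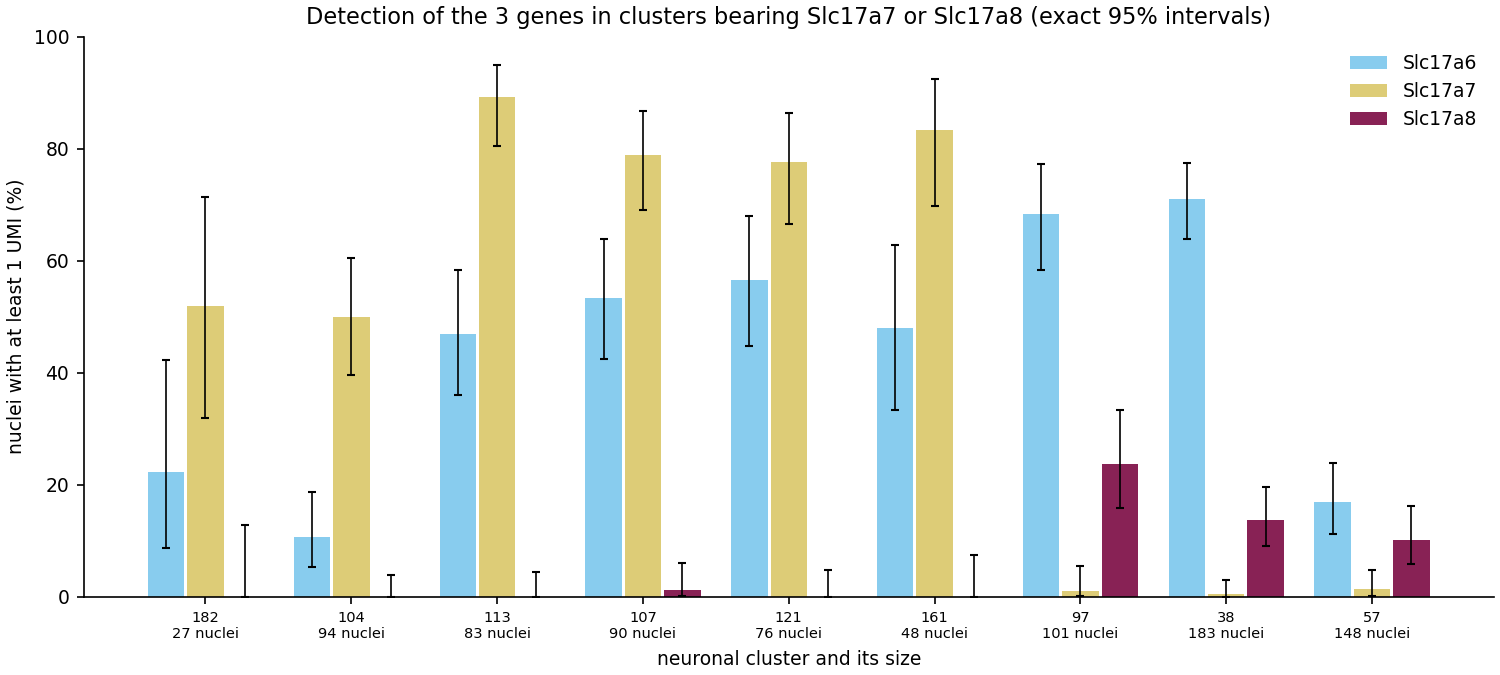
Share of nuclei with at least 1 UMI (y axis, percent) of Slc17a6, Slc17a7 and Slc17a8 in the 6 clusters bearing Slc17a7 and the 3 bearing Slc17a8, with exact 95% intervals. Slc17a7 and Slc17a8 occupy separate clusters, and Slc17a6 is detected in 47.0% to 71.0% of nuclei in all but clusters 182, 104 and 57.

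In single nuclei the transporters were mostly detected one at a time. Of 12539 neurons, 4765 (38.0%) had a UMI of at least 1 transporter gene, with Slc17a6 alone in 4154, Slc17a7 alone in 189 and Slc17a8 alone in 99. Slc17a6 was found with Slc17a7 in 185 neurons and with Slc17a8 in 137, Slc17a7 with Slc17a8 in 1, and all 3 in 0 neurons, which by a limit of 3 counts allows up to 0.0239% of neurons with a UMI of each at this depth and sets no limit on neurons that express all 3. A single UMI was all that was detected in 45.9% of neurons with Slc17a6, 46.1% of those with Slc17a7 and 71.3% of those with Slc17a8, so many nuclei that contain a transcript would have been missed.

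Among neurons with Slc17a7, 49.3% (exact 95% interval 44.2% to 54.5%) also had Slc17a6, against 35.3% of neurons without Slc17a7. By library the share was 53.0% and 41.6% in controls and 51.0% and 54.3% in AgRP-Gq;POMC-Gi libraries, above the share in the remaining neurons in 4 of 4. Neurons with Slc17a7 were deeper, however, at a median of 13234 UMIs against 8631. At 2000 UMIs per neuron the shares were 11.5% (6.72% to 18.0%) and 12.9%, and the excess was no longer seen. At full depth with 2 UMIs of each gene they were 24.3% (18.5% to 30.8%) and 19.2%, which does not equalize depth.

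Among neurons with Slc17a8, 57.8% (51.2% to 64.2%) also had Slc17a6, against 35.3% of the rest. The library values were 51.2% and 53.1% in controls and 59.7% and 63.2% in AgRP-Gq;POMC-Gi libraries, again above the remaining neurons in 4 of 4. At 2000 UMIs the shares were 17.2% (8.90% to 28.7%) and 12.8%, a difference that was not detectable at this depth. At full depth with 2 UMIs of each gene they were 33.8% (22.8% to 46.3%) and 19.2%, a setting that does not equalize depth. Within clusters, 20 of 24 nuclei with Slc17a8 in cluster 97 and 20 of 25 in cluster 38 had Slc17a6, against 1 of 15 in cluster 57 and 0 of 6 in cluster 167. Among nuclei without Slc17a8 the shares were 63.6%, 69.6%, 18.0% and 8.11% in the same order of clusters. Median depth with and without Slc17a8 was 10117 and 6589 UMIs in cluster 97 and 12059 and 8851.5 UMIs in cluster 38. It was 7521 and 9812 UMIs in cluster 57 and 10288 and 8275 UMIs in cluster 167.

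The vesicular GABA and glycine transporter Slc32a1 was largely found in other neurons than Slc17a6. Across the 134 clusters the 2 genes had r = -0.83 (Spearman rho = -0.77) on log2(CPM + 1), a description over clusters that share the same 4 libraries. By the same rule Slc32a1 was borne by 50 of the 60 clusters without a transporter gene of glutamate and by 3 of the 74 with at least 1. Those 3 were clusters 39, 57 and 134, with 37.4, 42.9 and 45.5 CPM of Slc32a1 and 32.5, 32.4 and 39.2 CPM of Slc17a6. In nuclei, Slc32a1 was detected in 6.26% of neurons with Slc17a6 and in 27.6% of those without. Within the clusters bearing Slc17a6 these shares were 4.33% and 10.4%, and within the other clusters 31.0% and 35.1%. The gap was thus smaller within either set of clusters than over all neurons.

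The 10 clusters that bore neither included cluster 116 (Prph/Slc5a7), which is named after a motor neuron filament and the choline transporter, and the serotonin cluster 167. Clusters 142, 166, 176 and 180 held Slc32a1 at 42.2 to 50.8 CPM, in 23.1% to 35.5% of nuclei, and Gad2 at 152 to 339 CPM, and missed the rule for Slc32a1 by the UMI minimum. Each of the 10 held 19 or fewer UMIs of Slc32a1 and 10 or fewer of Slc17a6.

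**Figure D4:**
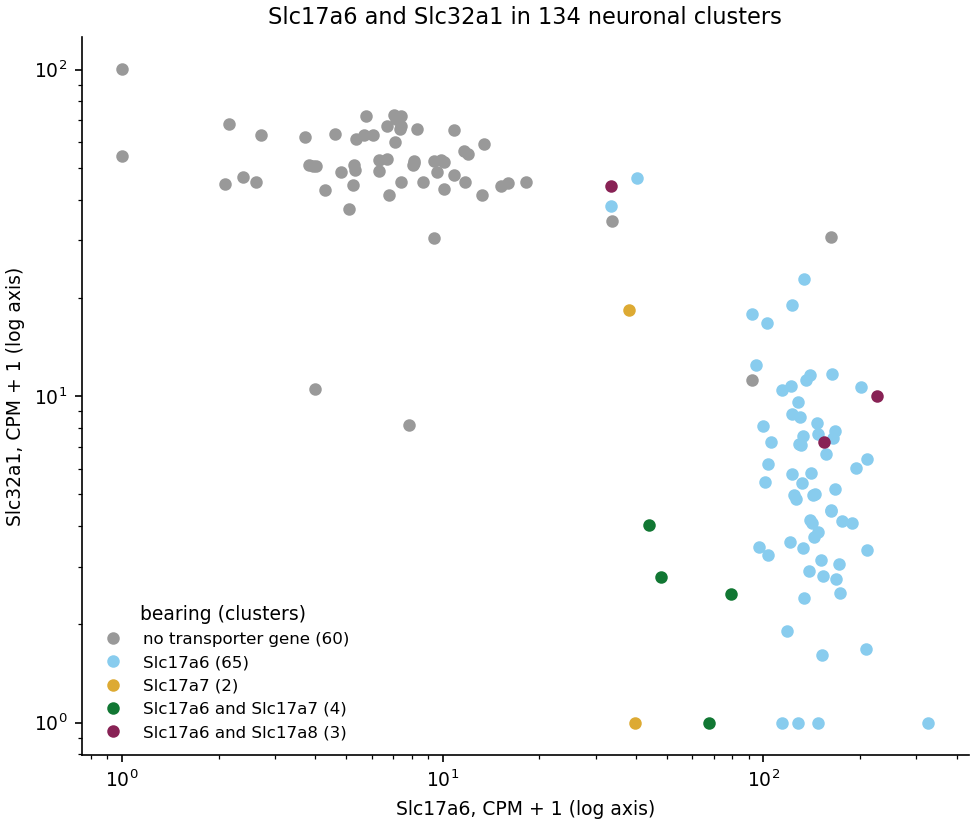
Mean level of Slc17a6 (x axis) against that of Slc32a1 (y axis), both as CPM + 1 on log axes, with 1 point for each of 134 neuronal clusters coloured by the transporter genes it bears. Clusters without a glutamate transporter gene gather at the upper left, those with Slc17a6 at the lower right, and clusters 39, 57 and 134 lie between.

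Other genes of glutamate and transmitter handling were compared between clusters with Slc17a6 and clusters with no member. Of all 17224 genes with at least 100 UMIs, 13.5% were higher and 25.4% lower in the Slc17a6 clusters in every library. Among 15 handling genes with that many UMIs, 1 was higher and 6 were lower in every library, and none differed 2-fold. By contrast Gad1 was at 9.07 ± 1.79 against 102 ± 8.23 CPM and Slc6a5 at 23.5 ± 5.95 against 158 ± 6.20 CPM. Of the monoamine genes, Th was at 5.32 ± 2.07 CPM with Slc17a6 and 0.930 ± 0.420 CPM without, and Dbh at 2.33 ± 0.957 and 0.188 ± 0.130 CPM, both higher in 4 of 4 libraries. Ddc was at 15.4 ± 3.84 and 11.5 ± 8.87 CPM, higher in 3 of 4, and Slc18a2, the vesicular monoamine transporter, at 20.2 ± 2.02 and 26.4 ± 6.29 CPM, lower in 4 of 4. Of the serotonin genes, Tph2 and Slc6a4 were lower with Slc17a6 in 4 of 4 libraries. Tph2 was at 0.546 ± 0.221 and 11.1 ± 11.4 CPM and Slc6a4 at 0.249 ± 0.256 and 6.02 ± 6.28 CPM, while Fev (24 UMIs) was lower in 2 of 4. Cluster 167, which bore no member, ranked 1st for Tph2, Slc6a4, Ddc and Slc18a2, at 1341 ± 568, 663 ± 314, 952 ± 265 and 482 ± 207 CPM. The median over neuronal clusters was 0 CPM for Tph2 and Slc6a4, and the contrast without cluster 167 was not tested. Of 13 genes of other transmitters with at least 100 UMIs, 3 were higher and 9 lower in every library.

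Of the glutamate receptor genes, Grm8, a presynaptic inhibitory receptor, was at 595 ± 53.3 CPM in Slc17a6 clusters and 360 ± 17.9 CPM in those without a member. The kainate receptor subunit Grik2 went the other way, at 1156 ± 106 and 1965 ± 66.7 CPM. In all, 5 of 25 receptor genes were higher and 10 lower in every library, none of them 2-fold, beside the shares over all genes given above. The other members of the SLC17 family were low or even: Slc17a5, the lysosomal sialic acid carrier sialin, was at 48.0 ± 4.16 and 48.1 ± 3.74 CPM, Slc17a9, the vesicular nucleotide carrier, at 2.05 ± 0.243 and 1.69 ± 0.197 CPM, and Slc17a1 to Slc17a4 had 8 UMIs or fewer each.

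Over the 134 clusters and 12508 genes with a mean of at least 5 CPM, the genes most like Slc17a6 were Nrn1 (r = 0.91), Cacna2d1 (r = 0.86), Tmem163 (r = 0.82), Gm3510 (r = 0.78) and F13a1 (r = 0.77). For Slc17a7 they were Actn4 (r = 0.58), Syne1 (r = 0.57), Tspan5 (r = 0.55), Tanc1 (r = 0.55) and Mgat5 (r = 0.53), but with rank correlations of 0.11 to 0.34, since few clusters carry the gene. No gene had a positive correlation above r = 0.38 with Slc17a8, whose own mean of 3.01 CPM was below the minimum. The most negative correlations were -0.86 with Slc17a6, -0.71 with Slc17a7 and -0.44 with Slc17a8. These correlations describe the clusters, whose points share libraries and differ in depth.

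The design asks whether activating AgRP neurons while inhibiting POMC neurons changed the hindbrain within 1 h. For Slc17a6 in all neurons, the groups stood at 74.2 ± 4.24 CPM in controls and 77.7 ± 0.876 CPM in AgRP-Gq;POMC-Gi samples (n = 2 each) and overlapped. The log2 fold change was 0.13 (SE 0.073), with an adjusted p of 0.81 by edgeR's quasi-likelihood test with Benjamini-Hochberg adjustment over 12115 genes. Over the settings tried, the adjusted p ran from 0.0945 to 1.00. Of all genes in that fit 0 were called, a background of 0%, with 667 at an unadjusted p under 0.05 (5.51%) and 12 called by DESeq2.

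Slc17a7 and Slc17a8 were in under 5% of neurons and so did not enter that fit. Without the filter, Slc17a7 had a log2 fold change of -0.28 (SE 0.24) and Slc17a8 of 0.43 (SE 0.25), each with an adjusted p of 0.87 by edgeR. Shares of neurons with a UMI were 36.1% and 35.9% in controls against 34.2% and 36.8% for Slc17a6, 2.67% and 4.13% against 2.76% and 2.58% for Slc17a7, and 1.74% and 1.79% against 2.08% and 1.87% for Slc17a8. The exact two-sided permutation test gave p = 1, p = 0.667 and p = 0.333, of which the last is the smallest that 2 against 2 libraries can give. At 2000 UMIs per neuron the groups overlapped for all 3 genes.

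In the clusters that bear Slc17a6, its level was 124 and 131 CPM in controls and 134 and 138 CPM in AgRP-Gq;POMC-Gi samples. Both AgRP-Gq;POMC-Gi values were above both control values. The share of all genes whose groups separate in this way was not counted, so the separation is not read as a result. The log2 fold change was 0.15 (SE 0.080), with an adjusted p of 0.86 by edgeR over 12221 genes. Of those genes 0 were called (0%), 655 had an unadjusted p under 0.05 by edgeR (5.36%), and DESeq2 called 8. These clusters took up 50.7% and 53.5% of neurons in controls and 52.1% and 53.5% in AgRP-Gq;POMC-Gi libraries. In clusters with no member, at levels under the oligodendrocyte background, Slc17a6 had a log2 fold change of -0.39 (SE 0.18; adjusted p = 0.85 by edgeR), in a fit where 0 of 12013 genes were called and 657 (5.47%) had an unadjusted p under 0.05.

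In the clusters that bear Slc17a7, its level was 139 and 171 CPM in controls and 132 and 147 CPM in AgRP-Gq;POMC-Gi samples, with overlap. The log2 fold change was -0.10 (SE 0.15; adjusted p = 0.96 by edgeR) and turned to 0.06 without control replicate 2. In the fit on all 4 libraries 0 of 12414 genes were called (0%; 676 at an unadjusted p under 0.05, 5.45%; 0 by DESeq2). In only the 4 clusters that bear both genes it was -0.08 (SE 0.16; adjusted p = 0.98 by edgeR), where 0 of 13070 genes were called and 676 (5.17%) had an unadjusted p under 0.05.

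In the clusters that bear Slc17a8, its level was 11.8 and 27.2 CPM in controls and 48.6 and 16.2 CPM in AgRP-Gq;POMC-Gi samples. The high value came from AgRP-Gq;POMC-Gi replicate 1 alone. The log2 fold change of 0.73 (SE 0.51) had an adjusted p of 1.0 by edgeR, with 1 of 11815 genes called (0.00846%; 519 at an unadjusted p under 0.05, 4.39%), and turned to -0.28 (SE 0.48) without that library. These clusters were counted by their level over all 4 libraries, and without that library only 1 of the 3 met the rule, so the fold change is not independent of how the clusters were chosen. The values rest on 115 UMIs and spread widely between libraries, so a difference of this size was not called and is not excluded.

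**Figure D5:**
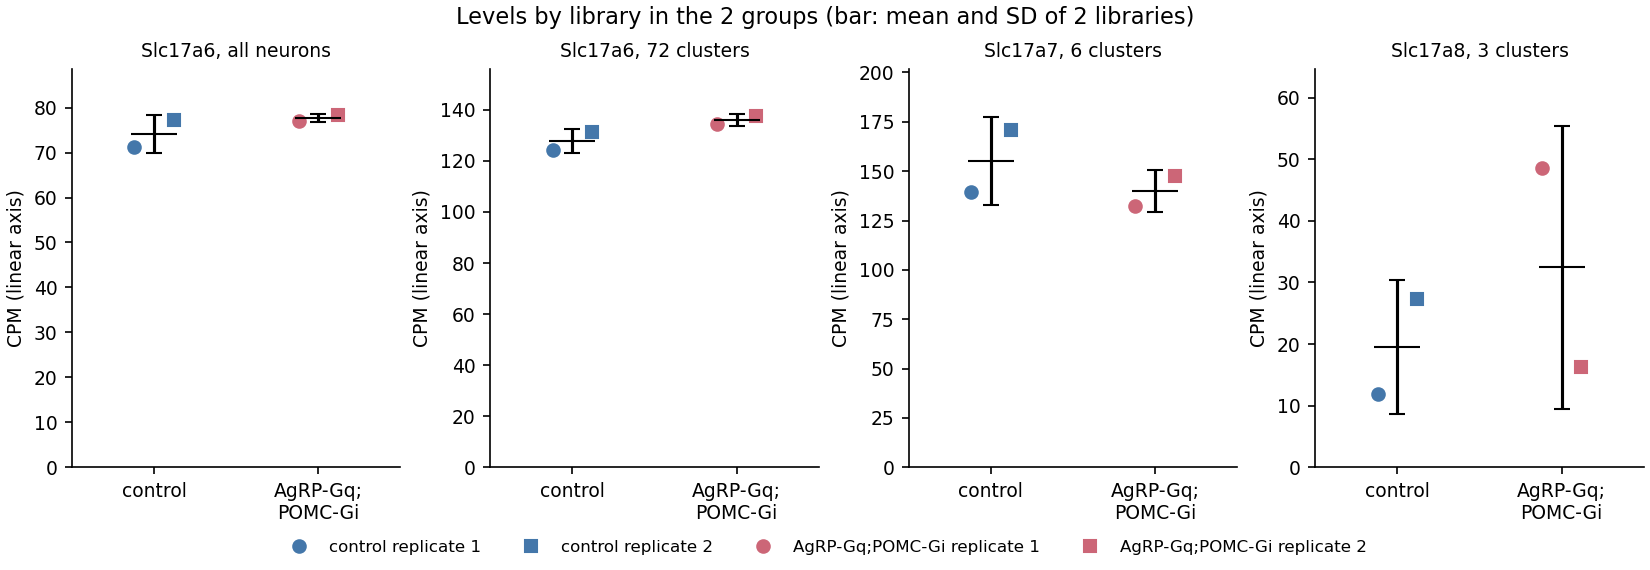
CPM (y axis, linear from 0) by library in the control and AgRP-Gq;POMC-Gi groups for Slc17a6 in all neurons and in its 72 clusters, Slc17a7 in its 6 clusters and Slc17a8 in its 3 clusters, with the mean and SD of 2 libraries. The groups overlap in every panel but that of Slc17a6 in 72 clusters, where the means are 128 and 136 CPM. The share of all genes that separate in this way was not counted.

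Cluster by cluster, 109 pairs of a cluster and a transporter gene could be tested in 120 clusters, and 0 passed, where 389 of 1396489 pairs of any gene did (0.0279%). At an unadjusted p under 0.05 there were 5 of the 109, all for Slc17a6, against 4.52% of all pairs. By DESeq2 there were 0 of the 109, against 0.390% of all pairs. In the 64 tested clusters that bear Slc17a6, 43 fold changes were positive and the median log2 fold change was 0.14, from -1.71 to 1.48. In the 28 tested clusters that do not bear it, 11 were positive and the median was -0.27. Over all genes, 51.4% of fold changes were positive in the former 64 clusters (median 0.02) and 51.2% in all 120 clusters. All clusters come from the same 4 libraries, so these signs are not independent and the clusters are not replicates. Of the 5 with an unadjusted p under 0.05, 3 were in clusters that do not bear Slc17a6, and the other 2 were cluster 168 (Rspo2/Ntng1), at 46.3 and 62.4 CPM in controls and 147 and 129 CPM in AgRP-Gq;POMC-Gi samples, and cluster 184 (Calcr/Shox2), at 131 and 159 against 27.2 and 57.4 CPM. They rest on 39 and 20 UMIs and moved in opposite directions, each with an adjusted p of 1.0 by edgeR over all pairs. Of the 4 tested clusters that bear Slc17a7, 3 had positive log2 fold changes, from -0.20 to 0.09 with a median of 0.03, while over all clusters that bear it the sign was negative. The 3 Slc17a8 clusters had log2 fold changes of 0.82 (SE 0.65) in cluster 97, 0.48 (SE 0.67) in cluster 38 and 0.33 (SE 0.67) in cluster 57. As said above, not all of them met the rule without AgRP-Gq;POMC-Gi replicate 1. Their fold changes are therefore not independent of how the clusters were chosen.

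In glia, Slc17a6 differed by a log2 fold change of 0.24 (SE 0.31; adjusted p = 0.88 by edgeR) in astrocytes and 0.13 (SE 0.18; adjusted p = 0.87 by edgeR) in oligodendrocytes. In those fits 56 of 13360 genes (0.419%) and 22 of 11524 genes (0.191%) were called, and 8.92% and 8.33% had an unadjusted p under 0.05.

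Among 17 genes that make, recycle or take up glutamate, 12 could be tested in all neurons and 0 passed in either direction, with a median log2 fold change of -0.08 against -0.00029 over all genes. Glul, the glutamine synthetase of glia, had the smallest p of the list at 26.0 ± 1.92 CPM in controls against 15.7 ± 5.27 CPM in the other group (log2 fold change -0.68, SE 0.18; adjusted p = 0.81 by edgeR). The glial glutamate transporter Slc1a2 was at 56.4 ± 17.7 and 42.0 ± 10.2 CPM (adjusted p = 0.81 by edgeR). In astrocytes these genes stood at 489 ± 57.3 and 3106 ± 225 CPM (n = 4). The part of glial RNA in the neuronal values was not tested, and the share of neurons per library differed between the groups as given above. With the replicate number as a block Glul passed, with an adjusted p of 6.7e-04 by edgeR, as the 1 handling gene called, in a fit where 169 of 12115 genes (1.39%) were called.

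Of 26 glutamate receptor genes, 23 were tested and 0 passed. Their median log2 fold change was 0.11, against -0.00029 over all genes, and 19 of 23 were positive. With 1 library left out the positive ones ran from 12 to 20, with the fewest without AgRP-Gq;POMC-Gi replicate 1. The receptor genes share the same libraries, and the share of positive fold changes over all genes was not counted. Without AgRP-Gq;POMC-Gi replicate 2, 12 receptor genes were higher and 3 handling genes (Got1, Glul and Slc38a2) lower by edgeR, in a fit where 2044 of 12125 genes (16.9%) were called. Without AgRP-Gq;POMC-Gi replicate 1 none of either list was called, the receptor median was 0.02, and 25 genes in all passed.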

How the data were processed

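UMI counts per gene and nucleus were deposited by the authors for each of the 4 libraries, from 10x Genomics 3′ libraries of sorted nuclei mapped to GRCm38 with Cell Ranger 7.0.0, before any normalization. The annotation and strand setting used in counting are not given in the sources used here. The authors filtered nuclei on UMIs, genes and mitochondrial share, detected doublets, embedded the nuclei with scVI and clustered them with Seurat 4.3.0. Their kept nuclei, cell types, clusters and cluster names were used as deposited, doublets were not called again, and UMI totals from the matrices equalled those of their table in 44303 of 44303 barcodes.

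The mitochondrial share of each nucleus was deposited by the authors as a percent. For CPM, UMIs were summed per library and cell type or cluster, scaled to the summed UMIs of those nuclei, and averaged over libraries. Intervals of shares are exact Clopper-Pearson intervals at 95%, and the limit given beside a count of 0 is 3 counts of the total. Groups were compared with edgeR 4.0.16 (quasi-likelihood test, TMM factors, R 4.3.3) for genes found in no fewer than 5% of nuclei (1% in glia). The SE beside an edgeR log2 fold change was derived as the absolute log2 fold change over the square root of the F statistic. Single clusters needed 5 nuclei per library. Benjamini-Hochberg adjustment ran over all genes, or all pairs of cluster and gene, at a threshold of 0.05. The test was also tried on counts simulated from the means, library sizes and dispersions of these data. The study's own group model, nebula with sample-level effects, was not used here. Alternatives were no TMM factors, DESeq2 1.42.0, no gene filter, filterByExpr, the replicate number as a block, each library left out, other limits for counting a cluster and thinning to 800 or 2000 UMIs. The named genes are the 3 transporters, 4 lists of genes (glutamate handling, SLC17 family, glutamate receptors, other transmitters), cell type markers and, by correlation over clusters, the 5 genes most like each transporter. The members, lists and rules were chosen with earlier results of these data known. Transcript positions and sequences are from GENCODE M21, and coding parts were aligned with Biopython 1.88. Tables were made in Python 3.11.15 with pandas 2.3.3 and scipy 1.17.1. Protein sequences were not used here, and some genes of the lists and some cluster names are not reported here.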

Additional observations from a re-analysis of the deposited data

How the results depend on the processing

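The limits first. With 2 libraries per group and nuclei of 2 pooled mice, the tests see only large changes in genes with few UMIs, and shares of nuclei depend on depth. The levels in neurons moved by less than 1 SD in every alternative run for them (each nucleus's own CPM, libraries left out, shared barcodes removed). Thinned to 800 UMIs, the shares of neurons with a UMI were 5.62% for Slc17a6, 0.447% for Slc17a7 and 0.231% for Slc17a8, and leaving out 1 library gave 2.67% to 3.16% for Slc17a7. Co-detection of Slc17a6 fell to 24.3% with 2 UMIs of each gene and to 11.5% at 2000 UMIs among neurons with Slc17a7, and to 33.8% and 17.2% among those with Slc17a8. The share of Slc17a6 in the remaining neurons fell too. It was 19.2% with 2 UMIs for either gene, and at 2000 UMIs 12.9% without Slc17a7 and 12.8% without Slc17a8. The count of clusters with Slc17a6 ran from 67 to 74 and that with Slc17a7 from 5 to 6 over all alternatives. For Slc17a8 it was 1 with a UMI in at least 20% of nuclei, 1 at 2000 UMIs, 7 with a minimum of 10 UMIs (a setting chosen after seeing the data, as were the removal of shared barcodes and the fit on the 4 clusters with both genes) and 1 to 3 with 1 library left out.

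No transporter gene passed the threshold in any population or cluster under any setting run. The log2 fold change of Slc17a6 stayed positive in all neurons (0.07 to 0.18) and in its clusters (0.09 to 0.19). That of Slc17a7 in its clusters ran from -0.23 to 0.060 with 1 library left out, reversing to 0.060 without control replicate 2, and that of Slc17a8 from -0.28 to 1.45, reversing without AgRP-Gq;POMC-Gi replicate 1. The difference in share of neurons turned for Slc17a6 to 0.920 percentage points at 2000 UMIs and ran from -1.82 to 0.740 with 1 library left out, and for Slc17a7 from -1.46 to 8.5e-05; the cause was not tested.

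Counts over all genes moved more. In all neurons, against 0 called, DESeq2 called 12, no filter and filterByExpr 1 each and leaving out 1 library 4 to 2044. In clusters with Slc17a6, against 0, DESeq2 called 8, no filter 3, filterByExpr 1 and leaving out 1 library 1 to 787. In clusters with Slc17a7, against 0, no filter called 20 and leaving out 1 library 0 to 17. In clusters with Slc17a8, against 1, no filter called 58, filterByExpr 0 and leaving out 1 library 0 to 21. Of pairs of cluster and gene, against 389, DESeq2 called 6, no filter 947, filterByExpr 44, at least 10 nuclei per library 219 and leaving out 1 library 581 to 1033. The highest counts in neurons and in Slc17a6 clusters came without AgRP-Gq;POMC-Gi replicate 2. Leaving out 1 library called 0 to 3 handling and 0 to 12 receptor genes.

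With the replicate number as a block, edgeR called 169 genes in all neurons, 1 in clusters with Slc17a6, 24 in those with Slc17a7, 0 in those with Slc17a8, 594 pairs and 1 handling gene. The labels tie the numbers to no shared mouse or batch, and the libraries numbered 1 deviated from their group means with a correlation of 0.18 over 12115 genes, with 2 pairs only, so the block is not read as a pairing.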
